A study of Danio rerio with 10 samples.

Results

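The genes described here belong to the mitochondrial respiratory chain, nuclear or mitochondrially encoded. They are rows of the expression table whose symbols start with stems that name subunits or dedicated factors of complexes I to V. Genes of the chain with other symbols, such as cyc1 and many assembly factors, fall outside these rows. Rows were taken by the start of the symbol (nduf, uqcr, sdha to sdhd, atp5, cox4 to cox8, mt-nd, mt-co, mt-cyb and mt-atp), with no measured value used. The rule found 119 of 32233 rows, of which 106 are nuclear and 13 are mitochondrially encoded. Of the nuclear rows, 92 are subunits and 14 are assembly or associated factors that share the same symbol stems. The samples were gata1-positive erythroid cells isolated from zebrafish embryos at 24 hours post fertilization, 5 libraries from sf3b1 mutants and 5 from their siblings, each sequenced as total RNA depleted of ribosomal RNA. The sf3b1 gene encodes a spliceosome subunit. The labels give neither the allele nor the way the cells were gated, and do not say whether sibling pools held heterozygous embryos. Nothing says that the libraries of a group came from different clutches, so the p-values here reflect the spread among these libraries alone, part or all of which may be technical.

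The respiratory chain sits in the inner mitochondrial membrane. Complexes I and II feed in electrons from NADH and succinate, complex III passes them to cytochrome c, complex IV hands them to oxygen, and complex V uses the resulting proton gradient to make ATP. Complex II is built from nuclear genes alone, while the other complexes join nuclear subunits to a small core encoded by mitochondrial DNA. Red cell precursors still hold mitochondria, where heme synthesis begins and ends.

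Values are FPKM (sequenced fragments normalised to gene length and to library size), a level per length, and differences are limma estimates on the log2(FPKM + 1) scale, mutant minus sibling, which understates changes of low genes. A gene was called at an adjusted p under 0.05 over all 13003 rows whose mean reached 1 FPKM. In the mutants sf3b1 was lower, at 16.0 to 21.3 FPKM against 36.3 to 43.9 FPKM in siblings (log2 difference -1.05 ± 0.13 SE, adjusted p = 3.26e-04). Sibling 2 is titled as wild type but carries a mutant genotype tag. It was kept as a sibling, and its sf3b1 level was 41.0 FPKM. Relative sequencing depth, estimated from ratios of low FPKM values, ran from 0.58 (mutant 3) to 1.25 (sibling 6) of that of mutant 1. Absolute depth is unknown. Libraries correlated with each other but none was identical to another. Erythroid markers were present in every library (14 of 14 rows tested, summed level 2565 to 8886 FPKM in mutants against 5167 to 22790 FPKM in siblings). Markers of other cell types were also present, and in whole-population RNA fewer cells of a type and less RNA per cell cannot be told apart.

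Few respiratory chain genes differed. Of the 119 rows, 103 were tested, and 5 were higher and 4 lower in mutants, together 8.74% of those tested. Over all rows tested, 14.3% were called, 5.59% higher and 8.74% lower. Without adjustment, 21 of the 103 rows (20.4%) had p under 0.05, against 29% of all rows tested. The median log2 difference of the tested rows was 0.12, against -0.06 over all rows, and 85 of the 103 estimates (82.5%) lay within 0.5 of 0, against 72.4% over all rows. All 9 called genes are nuclear, out of 90 nuclear rows tested. None of the 13 mitochondrially encoded rows was called, with 2 at an unadjusted p under 0.05. For 5 tested rows every mutant lay above every sibling, and for 1 the reverse held, while over all rows tested these shares were 4.98% and 7.26%. With sibling 2 counted as a mutant, after its genotype tag, cox7a3 and cox5b2 of the 9 remained called, of which cox5b2 had passed the filter on low values only through the siblings.

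**Figure D1:**
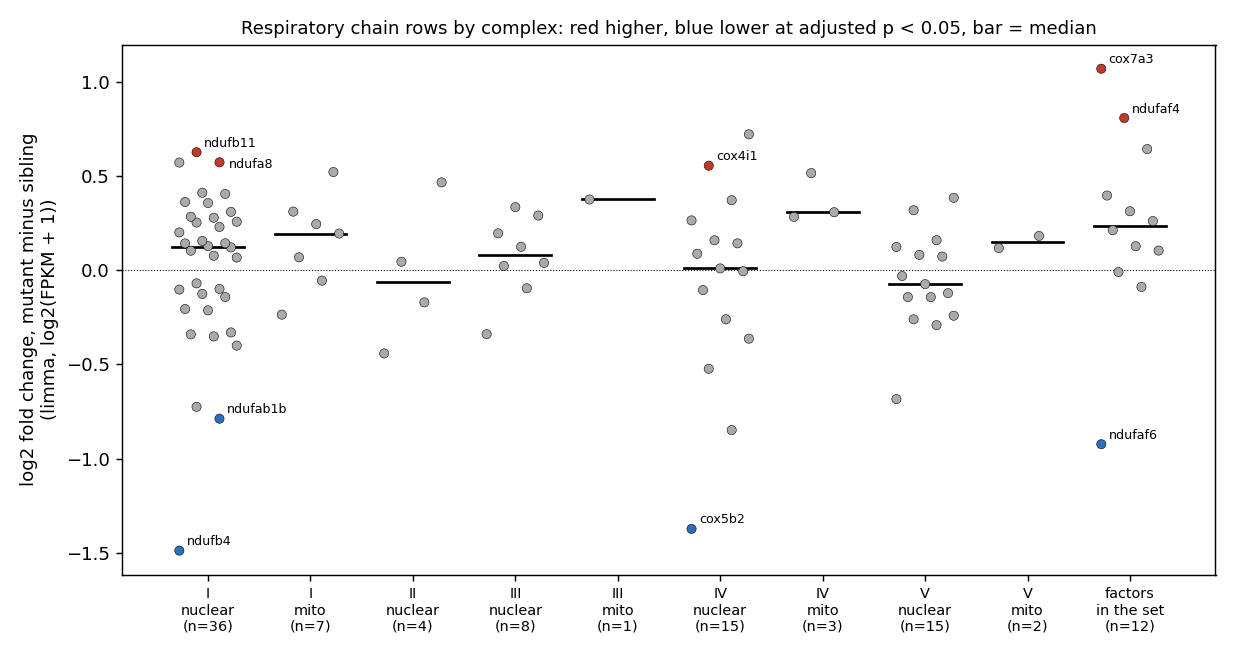
Each point is 1 tested respiratory chain row, placed by complex and genome on the x axis (assembly and associated factors at the right), with its log2 difference in FPKM + 1, mutant minus sibling, on the y axis (5 libraries a group). Called genes are coloured and labelled, and bars are medians. Most points lie between -0.5 and 0.5, and complexes II, III and V hold no called subunit.

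Complex I is the NADH dehydrogenase and the largest complex of the chain. Of its 50 tested members 6 were called (12%, against 14.3% of all rows). Of its 36 nuclear subunits tested, 2 were higher and 2 lower, with a median log2 difference of 0.13. The 7 tested nuclear core subunits, which carry the flavin and the iron-sulfur clusters, had none called and none at an unadjusted p under 0.05. Their log2 differences ran from -0.33 (ndufs1) to 0.36 (ndufv1), and without both mutant 1, where ndufs1 was high, and sibling 2, ndufs1 was called lower (-0.57, adjusted p = 0.0444). The 4 called subunits are accessory ones, the supernumerary proteins around the core.

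The gene ndufb4 encodes an accessory subunit of the membrane arm (chromosome 24, 23825882 to 23840744 in GRCz10). Mutants 1, 3, 4, 5 and 6 had 5.58, 3.97, 7.80, 4.81 and 2.87 FPKM, and siblings 2, 3, 4, 5 and 6 had 19.8, 11.3, 17.4, 16.6 and 12.7 FPKM. Every mutant library lay below every sibling library. Mean levels were 5.01 ± 1.86 against 15.5 ± 3.49 FPKM (SD, n = 5 each), and ndufb4 fell by 1.49 ± 0.23 SE on the log2 scale (adjusted p = 0.00125, two-sided exact permutation p = 0.0079, the smallest that 5 against 5 can give). Any row whose groups do not overlap has that permutation p, so it adds nothing to the lack of overlap.

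A second accessory subunit was also lower. The gene ndufab1b encodes the mitochondrial acyl carrier protein, which is bound in complex I and also serves fatty acid synthesis (chromosome 3, 35405613 to 35411902). Its levels were 14.96, 26.3, 30.3, 15.3 and 20.2 FPKM in mutants against 37.2, 30.1, 33.0, 36.4 and 46.7 FPKM in siblings. Mutant 4 slightly exceeded sibling 3, and the groups were otherwise apart. It fell by 0.79 ± 0.21 SE (adjusted p = 0.0261), and without mutants 5 or 6 or siblings 5 or 6 the adjusted p rose to between 0.0525 and 0.0626. It also lost its call after median-of-ratios scaling of the libraries. Its paralog ndufab1a, higher in level at 68.4 ± 13.7 against 51.1 ± 8.92 FPKM, had a log2 difference of 0.41 that was not called (adjusted p = 0.151). The difference between the paralogs was not tested.

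Both raised subunits are also accessory. The membrane-arm subunit ndufb11 (chromosome 8, 14142359 to 14146718) had 34.4, 32.7, 46.9, 32.7 and 35.05 FPKM in mutants against 20.3, 22.1, 28.9, 17.7 and 27.7 FPKM in siblings, without overlap. It rose by 0.63 ± 0.17 SE (adjusted p = 0.0267), but the call was lost without mutant 4 (0.0581), the highest mutant library, without sibling 3 (0.0528) or without sibling 5 (0.0663). The intermembrane-space subunit ndufa8 (chromosome 10, 9576745 to 9586435) had 17.2, 21.2, 29.8, 26.8 and 25.6 FPKM in mutants against 13.5, 16.0, 14.5, 16.0 and 18.2 FPKM in siblings. Only mutant 1 and sibling 6 crossed. It rose by 0.57 ± 0.16 SE (adjusted p = 0.0340), with an adjusted p of 0.0569 to 0.0793 without mutant 4, 5 or 6 or sibling 2, 3, 4 or 5.

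Assembly factors of complex I, which help to build the complex and are not part of it, also went both ways. The factor ndufaf4 (chromosome 20, 411852 to 415177) had 19.6, 13.95, 17.2, 15.9 and 12.3 FPKM in mutants against 9.01, 6.93, 8.19, 12.8 and 6.53 FPKM in siblings. Mutant 6 lay just under sibling 5, and all other mutants lay above all siblings. It rose by 0.81 ± 0.19 SE (adjusted p = 0.0144). The factor ndufaf6 (chromosome 16, 40537700 to 40558592) had 1.21, 2.86, 1.54, 1.92 and 0.417 FPKM in mutants against 2.55, 3.47, 2.96, 4.54 and 5.31 FPKM in siblings. Only mutant 3 and sibling 2 crossed. It fell by 0.92 ± 0.26 SE (adjusted p = 0.0357), and leaving out any 1 of mutants 1, 4 and 6 or siblings 3, 4, 5 and 6 took the adjusted p to 0.0552 to 0.0839. It also lost its call after median-of-ratios scaling. The other tested factors of the rule for complex I, ndufaf1, ndufaf2, ndufaf5, ndufaf7 and ATP5SL, were not called.

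Complex II, succinate dehydrogenase, had no called member. Its flavoprotein sdha, which oxidizes succinate, came nearest (chromosome 19, 7357135 to 7372808). Its levels were 48.7, 33.2, 31.8, 38.2 and 34.8 FPKM in mutants against 30.02, 22.3, 25.5, 24.9 and 30.2 FPKM in siblings. All mutants lay above all siblings, mutant 1 highest, with a log2 difference of 0.47 ± 0.15 SE and an adjusted p of 0.0581. It was called under 3 of the 21 alternatives run, among them quantile normalization (0.0459) and median-of-ratios scaling (0.0155). The highest adjusted p among the alternatives was 0.122. The iron-sulfur subunit sdhb had 15.1 ± 6.80 against 20.3 ± 6.79 FPKM, the membrane anchor sdhc had 11.8 ± 2.56 against 13.5 ± 3.58 FPKM, and the other anchor, sdhdb, had 4.27 ± 0.765 against 4.15 ± 1.09 FPKM (SD, n = 5 each), none of them called. The second anchor paralog, sdhda, was listed at 0 in 9 libraries and at 0.0977 FPKM in sibling 3, and a second row named SDHB was listed at 0 in all. The assembly factor sdhaf3 had 3.62 ± 1.35 against 1.89 ± 0.519 FPKM (adjusted p = 0.0646).

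Complex III, the cytochrome bc1 complex, also had no called member. The 8 nuclear subunits that the rule found had log2 differences of -0.34 (uqcrfs1) to 0.34 (uqcrc2a). The most abundant, the hinge protein uqcrh, had 75.4 ± 22.5 against 79.0 ± 13.7 FPKM. The Rieske iron-sulfur protein uqcrfs1 had 24.6 ± 3.98 against 31.2 ± 3.79 FPKM, with an adjusted p of 0.158. The 2 core paralogs uqcrc2a and uqcrc2b had 2.74 ± 0.872 against 2.09 ± 1.31 FPKM and 18.3 ± 2.68 against 18.1 ± 3.53 FPKM, and neither was called. Cytochrome c1 (cyc1), a complex III subunit with a symbol outside the rule, and cytochrome c (cycsb) were not called either. Their levels were 31.9 ± 5.82 against 25.3 ± 5.58 FPKM and 133 ± 18.8 against 127 ± 28.8 FPKM.

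Complex IV, cytochrome c oxidase, has the most paralogs. Of its 19 tested members 3 were called (15.8%), a share near the 14.3% of all rows tested. Of 15 nuclear subunits tested, 1 was higher and 1 lower, and the median log2 difference was 0.01. A further called member, higher in mutants, was its supercomplex factor cox7a3, a relative of the cox7a subunits that RefSeq lists as a synonym of cox7a2l; in mouse and human cells COX7A2L helps complexes III and IV associate (chromosome 12, 25106023 to 25110216). Mutants had 25.3, 46.6, 48.7, 41.5 and 40.2 FPKM, and siblings had 20.01, 17.7, 18, 17.2 and 18.6 FPKM. Siblings lay close together and every mutant lay above them, with mutant 1 the lowest of the mutants. Means were 40.5 ± 9.17 against 18.3 ± 1.07 FPKM, and cox7a3 rose by 1.07 ± 0.17 SE (adjusted p = 0.00179, exact permutation p = 0.0079). It remained called under each of the 21 alternatives run, with an adjusted p of up to 0.0397.

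The called subunit that rose is cox4i1, the widespread form of the regulatory subunit 4 (chromosome 18, 30529585 to 30531987). Mutants had 62.6, 61.6, 77.7, 66.4 and 69.9 FPKM, and siblings had 45.8, 38.5, 45.6, 40.2 and 60.3 FPKM. Sibling 6 lay just under the lowest mutant, and the groups did not overlap. It rose by 0.56 ± 0.15 SE (adjusted p = 0.0262); the adjusted p was 0.0518 to 0.0667 without mutant 4, 5 or 6 or sibling 3, 4 or 5. The second form, cox4i2, which in mammals is the lung and low-oxygen form, was under the mean for testing, at 0.0982 to 2.89 FPKM in mutants against 0.148 to 0.929 FPKM in siblings.

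The called subunit that fell is cox5b2, a paralog of the zinc-binding subunit 5B (chromosome 13, 50062547 to 50064795). Mutants had 0.396, 0.715, 0.406, 0 and 0 FPKM, and siblings had 0.529, 2.68, 2.07, 2.71 and 5.15 FPKM. Mutant 3 and sibling 2 overlapped. It passed the filter only through the siblings, and it fell by 1.37 ± 0.33 SE (adjusted p = 0.0169). Of the other 5B rows, ENSDARG00000015978 had 17.9 ± 8.38 against 17.6 ± 6.80 FPKM and was not called, and ENSDARG00000011208 ran from 0.0293 to 0.695 FPKM. A further row, cox8b, was listed at 0 in all mutants and at 0.362 to 0.857 FPKM in all siblings, but its mean of under 1 FPKM kept it out of the test, and exact zeros in the table can be failed estimates. Of the other paralog pairs, cox6b1 was at 4.68 ± 1.86 against 9.33 ± 3.20 FPKM (adjusted p = 0.0835, and 0.0145 without sibling 6) and cox6b2 was at 104 ± 31.5 against 125 ± 32.3 FPKM. The paralogs cox5aa (88.4 against 80.6 FPKM) and cox5ab (25.1 against 21.0 FPKM) and the sole tested subunit 8 row, cox8a (50.7 against 39.3 FPKM), were not called. Of the rows named for ndufa4, which is now counted as a complex IV subunit, ndufa4l had 41.4 ± 12.3 against 59.9 ± 16.4 FPKM (adjusted p = 0.157) and the others had group means of 0.0870 to 1.17 FPKM.

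**Figure D2:**
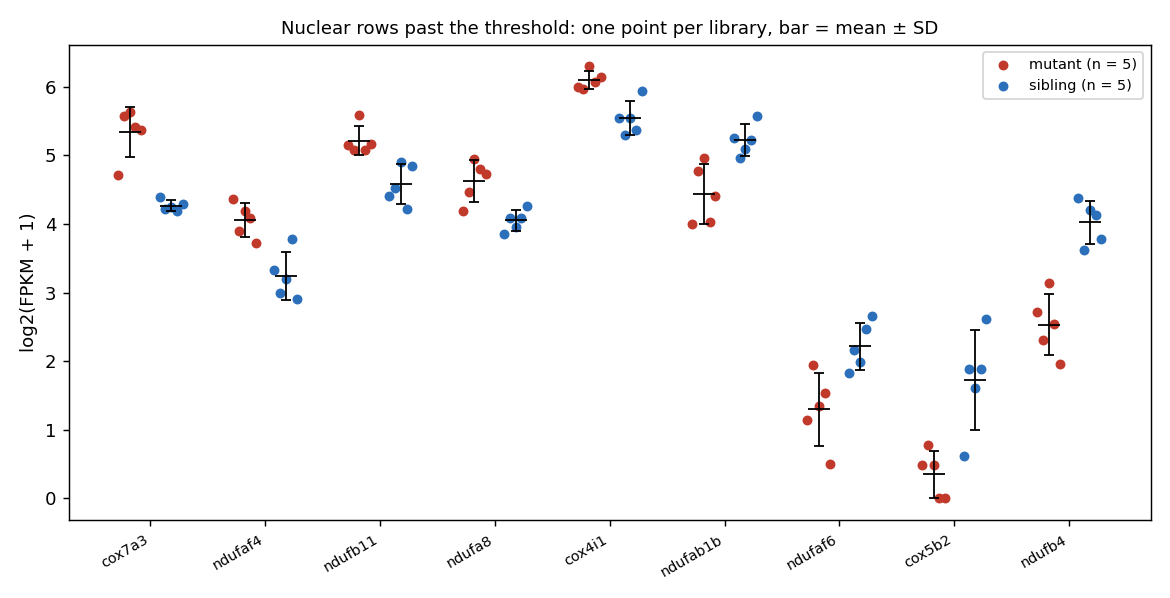
Level as log2(FPKM + 1) on the y axis for the 9 called nuclear genes on the x axis, with 1 point for each of the 5 mutant (red) and 5 sibling (blue) libraries; bars give the mean ± SD on that scale. The groups are apart without overlap for cox7a3, cox4i1, ndufb11 and ndufb4.

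Complex V, the ATP synthase, had no called member among 15 nuclear subunits tested, and its median log2 difference was -0.07. Its most abundant nuclear row, the peripheral stalk subunit atp5f1, had 178 ± 26.3 against 158 ± 17.3 FPKM. The catalytic-head subunits atp5a1 and atp5b had 143 ± 21.8 against 135 ± 37.8 FPKM and 52.5 ± 10.3 against 54.9 ± 17.5 FPKM. The 3 tested rows of the proton-carrying c ring, atp5g1, atp5g3a and atp5g3b, had 29.5 against 28.6 FPKM, 14.8 against 11.7 FPKM and 62.7 against 78.4 FPKM. In siblings atp5g3b ran from 49.9 FPKM in sibling 2 to 83.0 to 88.8 FPKM in the others, and without sibling 2 it was called lower (adjusted p = 0.0350). Of the 6 respiratory chain rows on chromosome 9, which also holds sf3b1, ndufa4l2a was not tested and none of the others was called. The nearest, the stalk subunit atp5o, lies 968 kb from sf3b1 and had 10.4 ± 1.71 against 7.77 ± 1.75 FPKM (adjusted p = 0.148).

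The mitochondrially encoded rows are transcribed from the mitochondrial DNA as long precursors and were far more abundant than most nuclear rows. Their mean levels in mutants ran from 80.5 FPKM (mt-nd3) to 1552 FPKM (mt-co3). None was called. Of the 13 estimates 11 were above 0, with a median log2 difference of 0.25 and a range of -0.23 (mt-nd4l) to 0.52. Over all rows tested, 5791 of 13003 estimates were above 0. Mutant 4 was the highest library for 10 of these 13 rows, and sibling 6 was the lowest for 7. The complex IV gene mt-co3 had 1432, 1357, 1974, 1311 and 1685 FPKM in mutants against 845, 1146, 1198, 943 and 1285 FPKM in siblings. All mutants lay above all siblings with a log2 difference of 0.52 ± 0.19 SE and an adjusted p of 0.0905. In mt-nd3, of complex I, levels were 59.1, 74.9, 116, 73.5 and 79.4 FPKM in mutants against 48.9, 87.0, 57.4, 49.3 and 39.3 FPKM in siblings, with the groups overlapping through sibling 3. Without sibling 3 the adjusted p of mt-nd3 went from 0.147 to 0.0457. The complex III gene mt-cyb had 737 ± 149 against 562 ± 83.9 FPKM, mt-co1 had 1307 ± 190 against 1072 ± 280 FPKM, and mt-co2 had 752 ± 128 against 614 ± 83.3 FPKM. For these 3 genes the log2 difference was 0.28 to 0.38, none with a 95% interval wholly above 0. The ATP synthase pair mt-atp6 and mt-atp8 had 947 ± 308 against 818 ± 202 FPKM and 730 ± 177 against 664 ± 130 FPKM. In complex I, mt-nd1, mt-nd2, mt-nd4 and mt-nd5 had log2 differences of 0.25, 0.20, 0.31 and 0.07. Of the genes below 0, mt-nd6, the only protein gene of the other strand, had 332 ± 72.0 against 367 ± 156 FPKM. Neighbouring rows share bases (7 for mt-atp8 and mt-atp6, 1 for mt-atp6 and mt-co3, 7 for mt-nd4l and mt-nd4, 4 for mt-nd5 and mt-nd6), and the sources used here do not state whether counting was strand-aware, so values of those pairs may share fragments.

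**Figure D3:**
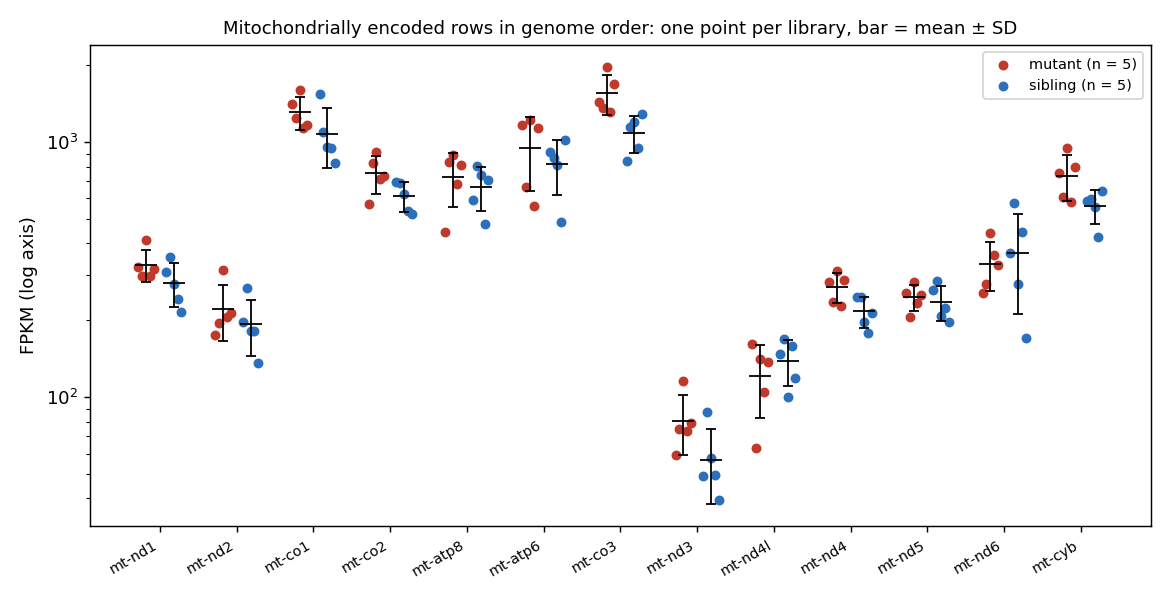
Level in FPKM, on a log y axis, of the 13 mitochondrially encoded protein rows in genome order, with 5 mutant (red) and 5 sibling (blue) points each and bars for the mean ± SD. The groups overlap for every row other than mt-co3, where all 5 mutants lie above all 5 siblings.

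Summed over subunits, mitochondrially encoded FPKM stood at 3.40, 3.05, 3.46, 2.84 and 3.42 times nuclear FPKM in mutants and at 3.33, 3.55, 2.38, 2.37 and 2.30 times in siblings. Siblings 4, 5 and 6 were low, while siblings 2 and 3 were within the range of the mutants. Mean ratios were 3.23 ± 0.28 and 2.78 ± 0.60 (SD, n = 5 each), with summed nuclear levels of 2351 ± 234 against 2307 ± 303 FPKM and summed mitochondrial levels of 7622 ± 1197 against 6298 ± 721 FPKM. By complex, the ratio was 6.86 ± 0.43 against 5.31 ± 1.13 in complex IV, 3.03 ± 0.78 against 2.35 ± 0.43 in complex III, 2.15 ± 0.34 against 1.90 ± 0.49 in complex V and 2.19 ± 0.21 against 2.27 ± 0.70 in complex I. In complex IV mutants lay at 6.41 to 7.56 and siblings at 4.03 to 6.57, so the groups overlapped. No test is given for these sums, which are dominated by the most abundant genes. Single libraries moved many members together. Mutant 4 was the highest library for 26 nuclear and 10 mitochondrially encoded members, while sibling 6 was the highest for 23 nuclear members and the lowest for 7 mitochondrially encoded members. Sibling 2 was the lowest for 23 nuclear members. Members listed at 0 numbered 8 to 11 in each mutant library and 5 to 8 in each sibling library. Over the whole table, rows above 0 numbered 20247 to 21397 in mutants and 20843 to 21595 in siblings. Relative depth was 0.58 to 1 in mutants and 0.86 to 1.25 in siblings, and its part in these zeros was not tested.

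**Figure D4:**
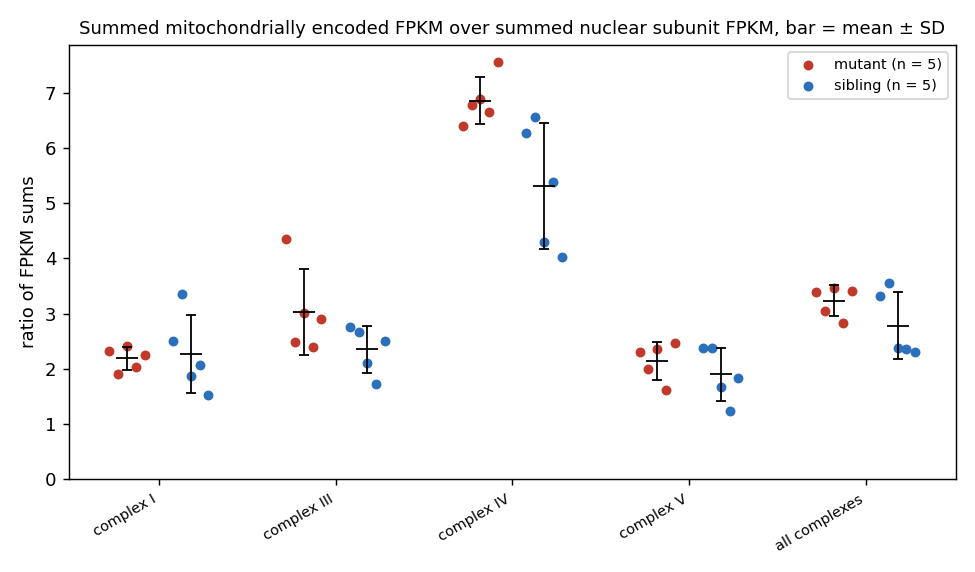
Ratio of summed mitochondrially encoded to summed nuclear subunit FPKM, on a linear y axis, for each complex that has both and for all complexes, in 5 mutant and 5 sibling libraries with the mean and SD. In complex IV the mean was 6.86 in mutants and 5.31 in siblings, with sibling 3 above the lowest mutant.

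The other 16 rows were not tested. Of these, ndufs8b, cox7a1, ndufa13, NDUFAF3 and the second SDHB row were listed at 0 in all 10 libraries, and ndufs8a, the paralog of ndufs8b, had 11.7 ± 4.88 against 9.73 ± 3.39 FPKM. The other untested rows had means over all libraries under 1 FPKM and included ndufa1 and the low isoform rows cox6a2, cox4i1l and ndufa4l2a. Their widespread counterparts were measured: cox6a1 had 21.5 ± 3.56 against 21.4 ± 1.43 FPKM and cox7a2a had 22.7 ± 4.83 against 20.3 ± 5.14 FPKM, neither called.

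Genes that serve the chain but fall outside its symbols were read from lists of assembly factors. Over the lists for complexes I, III, IV and V, 39 of 42 rows were tested, 7 were called higher (17.9%, against 5.59% of all rows) and 0 lower by limma, with a median log2 difference of 0.08. At an unadjusted p under 0.05 there were 13 (33.3%), against 29% of all rows, and these went in both directions. Of the 39 estimates, 24 were above 0 and 15 below. Of the 7 called, 2 passed the filter on low values only through the mutants. With sibling 2 counted as a mutant, uqcc3, ttc19, lyrm7, coa7, tmem70 and ecsit lost their calls, and atpaf1 kept its call. Among the 34 rows whose mean reached 1 FPKM in each group, 5 were called higher (14.7%, against 5.54% of all such rows). The called complex III factors are uqcc3, ttc19 and lyrm7, of which uqcc3 is among the 4 that reached that mean in each group. The cytochrome b stabilizing factor uqcc3 had 5.82, 4.07, 5.80, 3.89 and 3.49 FPKM in mutants against 1.44, 2.67, 2.58, 2.09 and 1.195 FPKM in siblings, without overlap, and rose by 0.91 (adjusted p = 0.0104). The complex III factor ttc19 had 2.87 ± 1.25 against 0.751 ± 0.579 FPKM (adjusted p = 0.0175), and lyrm7, which handles the Rieske protein, had 1.88 ± 0.790 against 0.469 ± 0.454 FPKM (adjusted p = 0.0232, and 0.0551 without sibling 5 or 0.0512 without sibling 6). Both of the latter passed the filter only through the mutants. Of 21 complex IV factors, coa7 was called: mutants had 5.65, 7.51, 12.7, 9.10 and 10.3 FPKM and siblings 2.90, 4.18, 3.13, 2.86 and 2.51 FPKM, and it rose by 1.26 (adjusted p = 0.00161). Complex V factors atpaf1 (4.53 ± 0.560 against 2.11 ± 0.569 FPKM) and tmem70 (5.41 ± 2.25 against 1.996 ± 0.519 FPKM) were both called higher, at adjusted p = 0.00547 and 0.0147, of 5 tested. The complex I factor ecsit rose by 0.81 (11.9 ± 1.41 against 6.61 ± 2.32 FPKM, adjusted p = 0.0195).

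Genes that keep and express the mitochondrial DNA had 5 called of 14 tested, 3 higher and 2 lower, where 14.3% of all rows were called, 5.59% higher and 8.74% lower. The packaging and transcription factor tfam fell, from 7.31 ± 2.01 to 3.36 ± 0.718 FPKM (log2 difference -0.91, adjusted p = 0.00972), with 2.65, 2.55, 3.55, 3.999 and 4.04 FPKM in mutants against 7.54, 9.17, 9.31, 4.84 and 5.69 FPKM in siblings. All siblings lay above all mutants. With sibling 2 counted as a mutant the call of tfam was lost (adjusted p = 0.118). The primase-polymerase primpol fell by 1.29 (adjusted p = 0.00401), and the transcription factor tfb2m rose by 0.59 (adjusted p = 0.0261, and 0.0580 without mutant 6 or 0.0617 without sibling 5). Mitochondrial RNA processing and stability genes had 3 of 15 higher and none lower, with a median of 0.41. These were tbrg4 (19.9 ± 3.84 against 8.86 ± 0.998 FPKM, log2 difference 1.07, adjusted p = 7.96e-04), the helicase supv3l1 (8.57 ± 1.86 against 3.01 ± 1.41 FPKM, 1.29, adjusted p = 0.00275) and ptcd1 (7.02 ± 0.673 against 4.70 ± 0.711 FPKM, 0.50, adjusted p = 0.0287). The call of ptcd1 did not hold when mutant 3, 4 or 5 or sibling 2, 3 or 4 was left out (adjusted p = 0.0524 to 0.0678). Among regulators of mitochondrial biogenesis, 2 of 12 were higher and 2 lower. The respiratory gene activator nrf1 fell, from 8.42 ± 1.76 to 3.90 ± 1.11 FPKM (-0.96, adjusted p = 0.00680), and tfam is the other that fell, counted in both lists. The coactivator pprc1 rose by 0.39 (adjusted p = 0.0450), with an adjusted p of 0.0547 to 0.0988 on leaving out each library other than sibling 2 in turn. The TCA cycle supplies the chain's electrons, and its list here also holds pyruvate dehydrogenase and pyruvate carboxylase genes. That list had 1 of 19 higher and 3 lower. The 1 higher was dlat, part of pyruvate dehydrogenase and not of the cycle itself, up by 0.76 (16.1 ± 0.968 against 9.21 ± 1.41 FPKM, adjusted p = 0.00341). The 3 lower are cycle enzymes, among them suclg2 and dlst, down by 0.89 and 0.68 (adjusted p = 0.0199 and 0.0247). The call of suclg2 was lost without sibling 4 (0.0505) or 5 (0.0520), and that of dlst without mutant 3 or 5 or sibling 4 or 6 (0.0501 to 0.0647). With sibling 2 counted as a mutant, tfb2m, supv3l1, ptcd1, pprc1 and dlat also lost their calls.

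**Figure D5:**
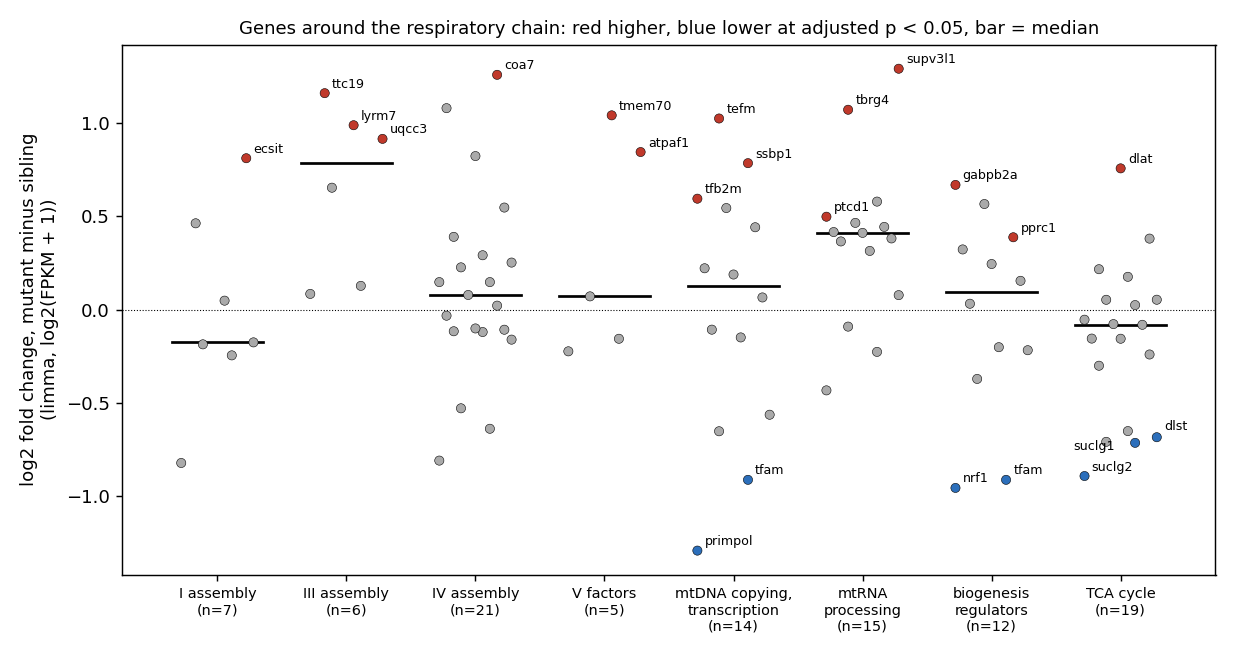
Log2 difference in FPKM + 1, mutant minus sibling, of each tested gene in the lists of assembly factors, mitochondrial DNA and RNA genes, biogenesis regulators and TCA cycle genes (5 libraries a group). Called genes are coloured and labelled, bars are medians, and no assembly factor outside the rule was called lower. The TCA cycle list also holds pyruvate dehydrogenase and pyruvate carboxylase genes, among them dlat.

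Markers of other cell types were measured in the same libraries. Over all rows tested, 8.74% were called lower in mutants. Of 12 tested myeloid markers, 8 were lower in mutants (66.7%). The summed level of myeloid markers was 229 to 474 FPKM in mutants against 532 to 877 FPKM in siblings over 14 rows. Muscle markers summed to 193 to 708 FPKM in mutants against 321 to 1005 FPKM in siblings over 20 rows, with 3 of 16 tested lower (18.75%) and 1 row at 0 in all libraries. Epidermal markers summed to 148 to 705 FPKM in mutants against 138 to 426 FPKM in siblings over 22 rows, none called of 19 tested. Of 14 erythroid markers 3 were lower (21.4%), of 11 endothelial markers 2 were lower (18.2%), and of 10 neural markers none was called. Estimates were below 0 for 13 of 14 erythroid markers (median log2 difference -0.98) and 14 of 16 muscle markers (median -0.89). Over all rows tested, 7212 of 13003 were below 0 (median -0.06). For epidermal markers 16 of 19 estimates were above 0 (median 0.36). The part of these cells in the levels of respiratory chain genes was not tested.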

How the data were processed

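Per the labels' protocols, gata1-positive cells were isolated from embryos and their ribosomal-RNA-depleted total RNA was sequenced from stranded libraries. Per the submitters' processing notes, STAR 2.4.2a, Cufflinks 2.2.1, Picard and Trim Galore were used, on GRCz10. Per the file headers the authors deposited 1 FPKM value for each row and library; these are not counts, and absolute depth is unknown.

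Members and lists were chosen with earlier results of these data known. Rows with a mean FPKM of at least 1 were tested with limma 3.58.1 (R 4.3.3, mean-variance trend) on log2(FPKM + 1), with Benjamini-Hochberg adjustment over 13003 rows. Two-sided exact permutation tests over 252 relabellings cover single genes. Named genes were all mitochondrially encoded rows, each called nuclear member, the most abundant member of each complex, paralog families, and the 3 smallest p-values of each helper list. Names outside these are sdhb, sdhc, sdhaf3, uqcrfs1, ndufab1a, ndufa1, atp5a1, atp5b, atp5o the uncalled assembly factors and, in a plot, tefm, ssbp1, gabpb2a and suclg1, chosen after their values were seen. Tested on simulated data with 50 of 13003 rows changed at each size, the test recovered 54% of 2-fold changes and 12% of 1.5-fold changes. The share of changed rows there was far smaller than the 14.3% called here. The adjustment was thus stricter there, and these figures do not give the recovery in the reported fit. Alternatives were other pseudocounts, filters, scalings, left-out libraries, a replicate block, and sibling 2 counted as a mutant. Promoter sequence was not used here. Python 3.11.15 with pandas 2.3.3, numpy 2.4.6, matplotlib 3.10.9 and scipy 1.17.1 served for the remaining steps and plots.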

Additional observations from a re-analysis of the deposited data

Results flagged for a closer look

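In 14 of 160 groups of 5 libraries, 1 library lay so far from the other 4 that its gap passed Dixon's 95% critical value; chance flags about 5% of groups, against 8.75% here. In mutant 4, the most extreme library for many members, mt-nd1 was at 411.2 FPKM (others 297 to 322 FPKM), mt-nd2 at 313 FPKM (others 175 to 213 FPKM), ndufb11 at 46.9 FPKM (others 32.7 to 35.05 FPKM) and the 5B row ENSDARG00000015978 at 32.6 FPKM (others 12.2 to 16.7 FPKM). In mutant 1, ndufs1 was at 6.70 FPKM (others 3.23 to 3.86 FPKM) and ndufs8a at 20.2 FPKM (others 8.29 to 11.4 FPKM). In mutant 6, lyrm7 was at 3.28 FPKM (others 1.42 to 1.71 FPKM) and cox6a2 at 2.82 FPKM (others 0 to 0.208 FPKM).

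In sibling 6, cox6b1 was at 3.71 FPKM (others 10.2 to 11.7 FPKM) and supv3l1 at 5.46 FPKM (others 2.04 to 2.90 FPKM). In sibling 2, atp5g3b was at 49.9 FPKM (others 83.0 to 88.8 FPKM). Of rows under 2 FPKM, sibling 3 had 0.695 FPKM in the 5B row ENSDARG00000011208 (others 0.0489 to 0.143 FPKM) and 0.0977 FPKM in sdhda (others at 0), and sibling 5 had 1.56 FPKM in cox4i1l (others 0 to 0.381 FPKM).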

How the results depend on the processing

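None of the results changed sign while called under any alternative run. With sibling 2 counted as a mutant, all rows gave 300 higher and 461 lower, nuclear members 1 and 1, complex I 0 and 0, and complex IV 1 higher, and of the 9 called members cox7a3 and cox5b2 remained. That setting also ended the calls of coa7, uqcc3, ttc19, lyrm7, ecsit, tmem70, tfam, tfb2m, ptcd1, supv3l1, dlat and pprc1 (adjusted p = 0.0681 to 0.343). Quantile normalization called 956 rows higher and 1023 lower and median-of-ratios scaling 919 and 972, against 727 and 1137 in the reported fit. Quantile normalization gave 8 nuclear rows higher, 1 mitochondrially encoded row higher (mt-nd4, 0.0353), 2 complex II rows higher and 1 complex V row higher. Median-of-ratios scaling gave 2 nuclear rows lower (ndufb4 and cox5b2), 1 complex I row lower and 2 complex II rows higher. Under that scaling ndufab1b and ndufaf6 lost their calls. Scaling to equal sums without globin, mitochondrial and ribosomal RNA rows gave 717 rows higher and 853 lower. Not every lost call is named in this text. Of 21 alternatives, ndufb11 was called in 16, ndufab1b in 13, ecsit in 18, ptcd1 in 12 and pprc1 in 7. Of 20 alternatives that tested them, ndufaf6 was called in 8 and tfb2m in 15. A mean of at least 5 FPKM gave 755 rows lower, 2 nuclear rows lower, 0 complex IV rows lower and 1 complex II row higher; with no filter complex IV had 2 lower, and ndufa8 (0.0503) and ndufaf6 (0.0772) lost their calls. Counting only rows whose mean reached 1 FPKM in each group, an alternative chosen after seeing the data, left 5 nuclear rows higher, 3 lower and 0 complex IV rows lower, and 1 complex III assembly factor higher in place of 3. Leaving out both mutant 1 and sibling 2 gave 1 complex V row lower.

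Leaving out 1 library at a time, rows lower over all genes ran from 741 (without sibling 4) to 1238, nuclear members from 2 to 5 higher and 2 to 5 lower, complex I from 1 to 3 in each direction, complex IV from 1 to 2 in each direction, and mitochondrially encoded rows higher and complex V rows lower from 0 to 1. The median log2 difference of mitochondrially encoded rows stayed between 0.16 and 0.33 and that of nuclear subunits between -0.02 and 0.12.

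Replicate numbers 3 to 6 occur in both groups and are not stated to pair libraries. Deviations of same-numbered libraries from their group means had correlations of -0.03, 0.09, 0.10 and 0.15, and only number 6 matched best both ways. These values cannot show whether same-numbered libraries shared a clutch or a batch. In the replicate block fit, mutant 1 and sibling 2 had no same-numbered partner, so its estimates rest on the other libraries. Calls lost or gained there thus cannot be put down to the block alone. A replicate block ended the calls of ndufab1b (adjusted p = 0.103) and ndufaf6 (0.0903), and of ecsit, ttc19, lyrm7, tmem70, tfam, tfb2m, ptcd1 and pprc1 (0.0549 to 0.0931), and made those of ndufa4l (0.0442) and cox6b1 (0.0288), both lower. It gave 701 rows higher and 1158 lower and complex IV 3 lower. Rows near 1 FPKM may be limited most by depth, which was not tested. Relative depth was estimated from ratios of low FPKM values to those of mutant 1, and was 0.58 in mutant 3. Of the 4486 rows compared for mutant 3, 78 fell at the most frequent ratio, so the estimate is rough.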
